A study of Mus musculus with 8 samples.

Results

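The red cell lineage was followed through 9 genes: the transcription factors Gata1, Klf1 and Gfi1b, the erythropoietin receptor Epor, the membrane proteins Rhag and Slc4a1, the haem synthesis enzyme Alas2, the nuclear protein Hemgn and the carbonic anhydrase Car1. They were taken as every probe set whose platform annotation gave one of these symbols alone, which yielded 11 of 34945 probe sets with a single symbol and 9 of 18193 genes. Expression was measured on 1-colour Affymetrix arrays in Sca1+Lin- cells, a bone marrow fraction sorted for the stem and progenitor surface marker Sca1 and against markers of mature lineages. The groups were wild-type mice (WT, 3 arrays) and Sca1-MALT1 transgenic mice (5 arrays). The transgene is named for Sca1, a gene active in stem and progenitor cells, and for MALT1, an enzyme that relays antigen receptor signals to NF-kB and is deregulated in lymphoma of mucosal lymphoid tissue. The comparison asks what the transgene's presence goes along with in the transcripts of these cells. The labels give no strain, age, sex, treatment, founder line or antibodies of the lineage cocktail. They do not say that each array came from a separate animal, so some arrays may share an animal. The spread between arrays, which the tests use, may then be smaller than that between animals, and the p-values may be too small.

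Red cells arise from progenitors that first express Gata1, Gfi1b and Klf1, then depend on erythropoietin through Epor, and finally fill with haemoglobin while they build a specialised membrane. Gata1 binds DNA at GATA letters and acts with Klf1, which binds CACC letters, at most genes of the lineage. Gata1 and Gfi1b also serve megakaryocytes, and Gata1 serves mast cells and eosinophils, so neither gene marks red cells alone.

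GATA letters stood close to the start of most of these genes. The RefSeq promoter table held a window for 7 of the 9 genes (build GRCm38.p6), each with 250 bases before the start and 50 after it; Car1 and Slc4a1 had none there. The letters AGATAA were searched on either strand. So were TGATAA (T in first place), AGATAG (G in last place) and TGATAG (both changes). They were found, with no overlap between matches, in 6 of the 7 windows, against 29.8% of all 32851 windows. Counted by gene, a match was in 33.0% of all genes with a window. Among the other genes of the lineage listed further on it was in 31 of 71 (43.7%). Gata1 itself had no match, and its window in the table lies at a start inside the gene. The start used for Rhag also lies inside its RefSeq gene, as does the Rhag match shown here. The CACC letters CCNCNCCC, on either strand with overlaps allowed, were in 5 of the 7 windows, against 49.5% of all windows. Counted by gene, they were in 51.9% of all genes with a window and in 61 of the 71 other genes of the lineage (85.9%). A match is a description of letters and not a bound site. Each line shows the GATA match that comes first in the window, in capitals with 30 bases on each side, because these are the genes whose signals are compared; TTATCA is TGATAA read on the other strand, and in the same way TTATCT stands for AGATAA.
Klf1: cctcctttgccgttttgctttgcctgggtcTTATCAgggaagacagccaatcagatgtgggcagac
Gfi1b: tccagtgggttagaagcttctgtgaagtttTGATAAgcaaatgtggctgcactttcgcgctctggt
Epor: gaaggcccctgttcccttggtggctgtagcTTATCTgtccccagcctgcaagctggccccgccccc
Rhag: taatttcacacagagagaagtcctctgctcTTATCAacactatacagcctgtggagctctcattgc
Alas2: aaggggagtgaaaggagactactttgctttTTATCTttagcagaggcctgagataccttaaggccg
Hemgn: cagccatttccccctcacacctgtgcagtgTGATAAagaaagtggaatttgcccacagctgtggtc
The stretches lie on GRCm38.p6 at chr8:84901872-84901937 (plus strand) for Klf1, chr2:28622067-28622132 (minus strand) for Gfi1b, chr9:21963595-21963660 (minus strand) for Epor, chr17:40811088-40811153 (plus strand) for Rhag, chrX:150547301-150547366 (plus strand) for Alas2 and chr4:46404161-46404226 (minus strand) for Hemgn. The match begins 13 bases before the start in Hemgn, 31 in Rhag, 54 in Epor, 80 in Klf1, 86 in Alas2 and 120 in Gfi1b. In the Klf1 stretch the letters CAGATG, the E-box bound by the partner factor Tal1, begin 59 bases before the start. This E-box was in 2 of the 7 windows, against 17.2% of all windows and 19.2% of all genes with a window.

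Across all genes, any pair of arrays had an r of 0.956 to 0.983. Median log2 signals of the arrays ran from 6.40 to 6.48, and all 9 genes had a mean over the arrays above the median of all probe sets. The stem and progenitor markers measured were Kit (mean 10.11 in WT), Cd34 (10.63) and Flt3 (10.10), while the Sca1 gene, Ly6a, was not analysed here for want of a probe set of its own in the annotation. The endogenous Malt1 transcript differed by 0.49 (SE 0.22, limma adjusted p = 0.507), and the labels do not say whether its probe sets detect the transgene. Xist, the RNA of X inactivation in female cells, read 13.09 and 12.46 on Sca1-MALT1 replicates 2 and 4 and 6.20 to 6.58 on the other arrays. RNA quality, as the 3' probe set of the Gapdh control minus its 5' probe set (log2), was 2.70 to 2.92 in WT and 2.25 to 3.20 in Sca1-MALT1. For the beta-actin control it was 1.45 to 2.14 in WT. On Sca1-MALT1 replicates 1 to 5 the beta-actin value was 1.33, 1.53, 1.29, 1.25 and 2.49. The part of RNA quality in the erythroid values was not tested.

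None of the 9 genes passed the test between genotypes, although 8 of them had a higher mean in Sca1-MALT1. In a limma fit over all 18193 genes, with an adjusted p under 0.05 as the threshold, 0 of the 9 were called, against 16 of all genes (0.0879%). At an unadjusted p under 0.05, 4 of the 9 were included (Car1, Gata1, Gfi1b and Rhag), against 10.2% of all genes. The median log2 difference of the 9 genes, Sca1-MALT1 minus WT throughout, was 0.78, against 0.00395 over all genes, of which 50.7% had a higher mean in Sca1-MALT1. Groups did not overlap for 2 genes, Car1 and Gata1, both higher in Sca1-MALT1, against 4.27% of all genes in that direction. With a term for the Xist signal in the fit, 0 of the 9 genes were called, and Car1 differed by 2.30 (adjusted p = 0.151) and Gata1 by 0.93 (adjusted p = 0.301). As no WT array had high Xist, these are differences of the low-Xist Sca1-MALT1 arrays from WT. The high-Xist arrays add only to the variance, so this fit cannot compare genotypes among arrays with high Xist. These arrays measure bulk RNA, so more cells of the lineage and more RNA per cell cannot be told apart.

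**Figure D1:**
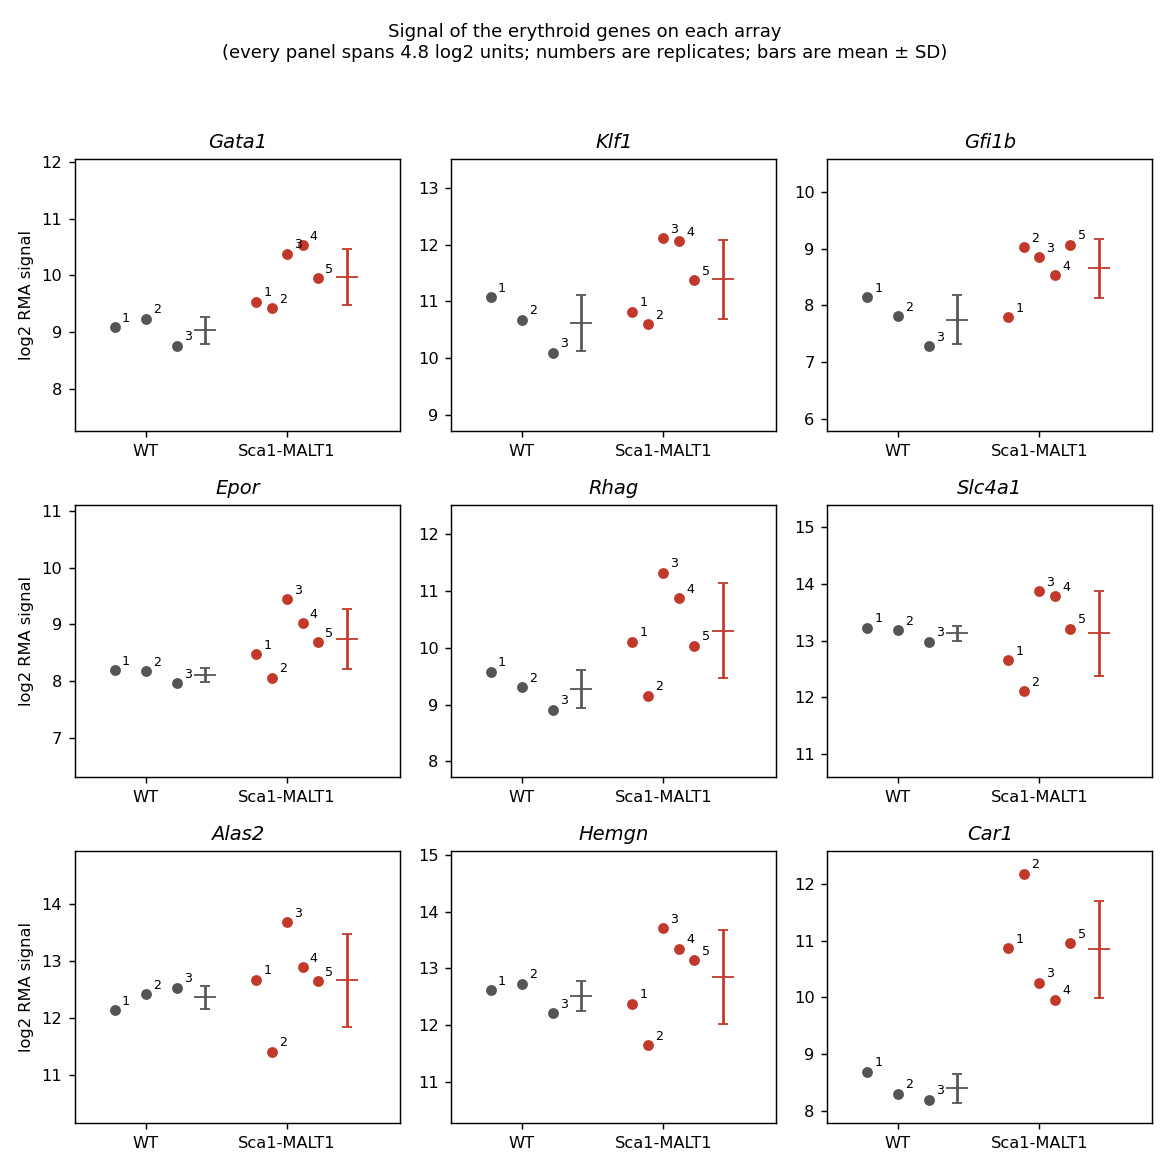
Log2 RMA signal (vertical axes, each spanning the same number of log2 units) of the 9 genes on the 3 WT and 5 Sca1-MALT1 arrays, where points are arrays, numbers are replicates and bars are mean ± SD. Car1 and Gata1 separate the groups, and the Sca1-MALT1 arrays are more spread out than the WT arrays in every panel.

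Among the transcription factors, Gata1, the zinc finger factor that directs the lineage, separated the groups. It read 9.08, 9.24 and 8.76 on WT replicates 1 to 3 and 9.53, 9.42, 10.38, 10.53 and 9.95 on Sca1-MALT1 replicates 1 to 5. All 5 Sca1-MALT1 arrays lay above all WT arrays, with replicates 3 and 4 highest. The means differed by 0.94 (SE 0.28, 95% interval 0.30 to 1.57, 1.91-fold, adjusted p = 0.333).

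Klf1, the CACC-binding activator of globin and membrane genes, read 11.07, 10.67 and 10.09 in WT and 10.81, 10.59, 12.12, 12.06 and 11.37 in Sca1-MALT1. Replicates 3, 4 and 5 were above all WT arrays and replicates 1 and 2 lay within the WT range. The difference was 0.78 (SE 0.40, 95% interval -0.14 to 1.70, adjusted p = 0.557). It was 0.52 without WT replicate 3.

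Gfi1b, a repressor needed for red cells and platelets, gave 8.14, 7.81 and 7.28 in WT and 7.79, 9.03, 8.85, 8.53 and 9.07 in Sca1-MALT1. Here replicate 1 was the low array, and the other 4 were above all WT arrays. The difference was 0.91 (SE 0.32, 95% interval 0.18 to 1.64, 1.88-fold, adjusted p = 0.386).

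The receptor gene Epor, through which erythropoietin keeps late progenitors alive, read 8.20, 8.18 and 7.97 in WT and 8.48, 8.06, 9.44, 9.02 and 8.69 in Sca1-MALT1. Only replicate 2 of the Sca1-MALT1 arrays fell within the WT range, and the other 4 were above it. A difference of 0.63 (SE 0.28, 95% interval -0.021 to 1.27, adjusted p = 0.503) did not pass.

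The membrane protein genes Rhag and Slc4a1 differed in their pattern. Rhag, the Rh-associated glycoprotein, read 9.58, 9.31 and 8.91 in WT and 10.11, 9.15, 11.33, 10.87 and 10.04 in Sca1-MALT1, where 4 arrays were above all WT arrays and replicate 2 was not. Its difference was 1.03 (SE 0.45, 95% interval 0.011 to 2.06, 2.05-fold, adjusted p = 0.488). Slc4a1, the band 3 anion exchanger of mature red cells, read 13.23, 13.19 and 12.98 in WT and 12.66, 12.11, 13.87, 13.78 and 13.21 in Sca1-MALT1. Replicates 3 and 4 were above and replicates 1 and 2 below all WT arrays, which left a mean difference of -0.003 with a 95% interval of -0.90 to 0.89 (SE 0.39).

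Only Slc4a1 had more than 1 probe set. Of its 3, the second brightest read 12.20 in WT and 12.33 in Sca1-MALT1 on average, a difference of 0.13 (SE 0.54, limma adjusted p = 0.955 over all probe sets), with the same order of replicates in Sca1-MALT1. The dimmest averaged 5.40 in both groups, below the array medians, and RMA gives it no detection call.

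Alas2, which makes the first precursor of haem in red cells, read 12.13, 12.41 and 12.53 in WT and 12.67, 11.40, 13.69, 12.90 and 12.64 in Sca1-MALT1. Replicate 2 was below all WT arrays and the other 4 were above them. Hemgn, a nuclear regulator of haematopoietic cells, read 12.61, 12.73 and 12.21 in WT and 12.38, 11.65, 13.71, 13.35 and 13.14 in Sca1-MALT1, again with replicate 2 below and replicates 3, 4 and 5 above all WT arrays. The differences were 0.30 for Alas2 (SE 0.43, 95% interval -0.68 to 1.28) and 0.33 for Hemgn (SE 0.44, 95% interval -0.67 to 1.33), with adjusted p-values of 0.855 and 0.847. Single arrays moved both values: without Sca1-MALT1 replicate 3 they were 0.044 and 0.11, and without replicate 2 they were 0.62 and 0.63. Alas2 was 0.19 without WT replicate 1, and Hemgn was 0.17 without WT replicate 3 and 0.20 without Sca1-MALT1 replicate 4.

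Car1, a carbonic anhydrase of early red cell precursors, had the largest difference of the 9 genes. It read 8.68, 8.30 and 8.19 in WT and 10.86, 12.18, 10.26, 9.96 and 10.95 in Sca1-MALT1. Every Sca1-MALT1 array was at least 1.27 log2 units above the highest WT array, and the order of the arrays was unlike that of the other genes, with replicate 2 highest and replicates 4 and 3 lowest. The difference was 2.45 (SE 0.45, 95% interval 1.42 to 3.48, 5.47-fold, 95% interval 2.68 to 11.14, adjusted p = 0.134), the 37th largest in that direction among all genes, and it did not pass the threshold. Without Sca1-MALT1 replicate 2, its highest array, the difference was 2.12 and passed (adjusted p = 0.043); over all alternatives the adjusted p ran from 0.043 to 0.379.

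**Figure D2:**
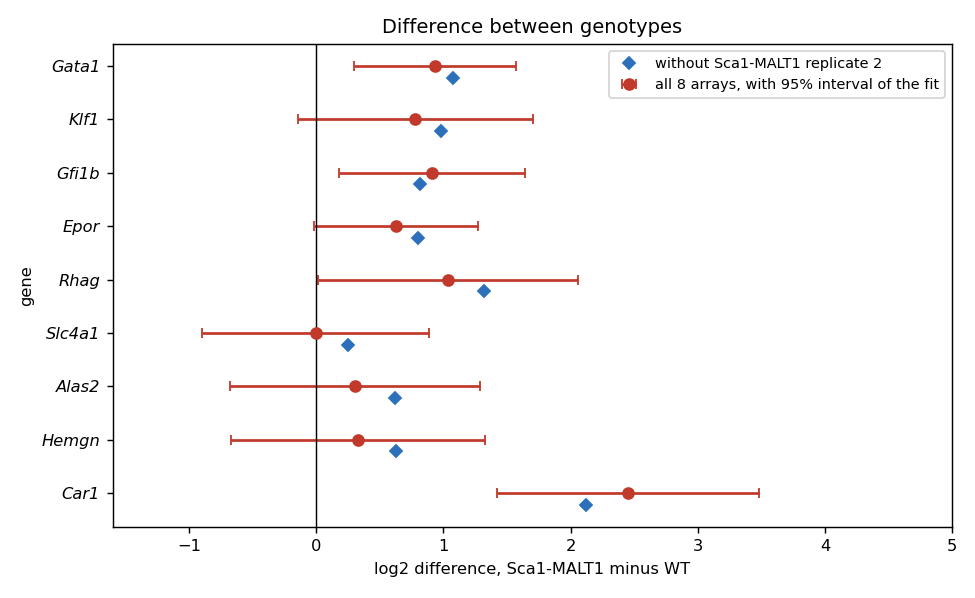
Log2 difference between genotypes (horizontal axis, Sca1-MALT1 minus WT) for each gene, where circles with bars are the fit to all 8 arrays with its 95% interval and diamonds are the same fit without Sca1-MALT1 replicate 2. The Car1 circle stands at 2.45 and that of Slc4a1 at -0.003, and leaving out replicate 2 moves Car1 and Gfi1b down and the other 7 genes up.

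Sca1-MALT1 arrays differed among themselves more than WT arrays in all 9 genes. The SD was larger in Sca1-MALT1 for each of the 9, against 59.8% of all genes. Among the other genes of the lineage listed further on, it was larger in 66 of 80 (82.5%), so this trait was not particular to the 9. The median ratio of the SDs was 3.07 over the 9 genes, against 1.20 over all genes. The range over the 5 arrays reached 2.29 in Alas2, 2.22 in Car1 and 2.17 in Rhag, against WT ranges of 0.40, 0.49 and 0.67. On replicates 3 and 4 all 9 genes were above all WT arrays, and on replicate 5 this held for 8. On replicate 2 it held for 3 (Car1, Gata1 and Gfi1b), while Slc4a1, Alas2 and Hemgn were below all WT arrays. The shares of all genes above or below all WT arrays on each replicate were not computed, so these counts only describe the 9 genes. Among the 5 Sca1-MALT1 arrays, replicate 2 was lowest in 7 of 9 genes, against 24.6% of all genes, and replicate 3 or 4 was highest in 7 of 9, against 33.0%. Averaged over the 8 genes other than Car1, the signal relative to the WT mean was 0.21, -0.17, 1.33, 1.03 and 0.67 on replicates 1 to 5. Without replicate 2, the groups did not overlap for 5 of 9 genes, all higher in Sca1-MALT1, against 6.94% of all genes. Replicate 2 was picked for being lowest in most of these same genes. The choice favours them over all genes, so no conclusion is drawn from this count.

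**Figure D3:**
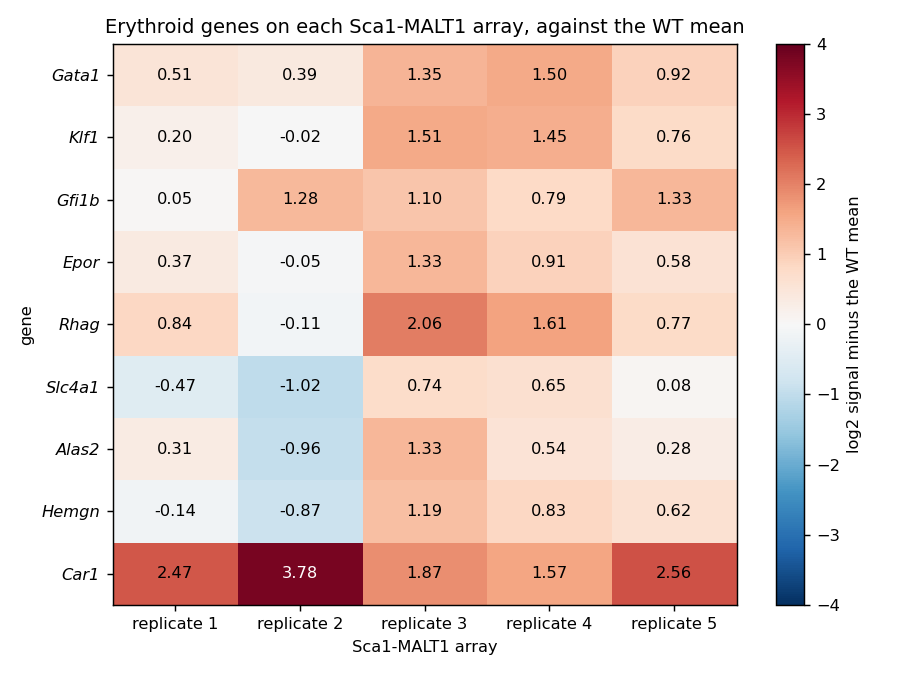
Log2 signal minus the WT mean (colour and printed values) for the 9 genes (rows) on the 5 Sca1-MALT1 arrays (columns). Replicates 3 and 4 are above 0 in every row, whereas replicate 2 runs from -1.02 in Slc4a1 to 3.78 in Car1.

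The array order set Car1 and, less so, Gfi1b apart from the rest. The 8 arrays differ in genotype and in markers of other cell types, and the part of either in the r values was not tested. Over these arrays Epor followed the mean of the other 8 genes, each scaled to unit SD, with Pearson's r of 0.98 and Spearman's rho of 1. Klf1 (r = 0.96), Rhag (0.96), Gata1 (0.94) and Hemgn (0.84) came next, followed by Alas2 (0.69), Slc4a1 (0.66) and Gfi1b (0.51). For Car1 r was 0.18 and rho 0.31. Its r with single genes ran from -0.41 to 0.74, against a median of 0.78 over the 28 pairs of the other 8 genes, which ranged from 0.011 to 0.98. These values describe 8 arrays and were not tested.

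Outside the 9, the genes whose pattern was most like their scaled mean over the 8 arrays were sought among 5200 genes brighter than the median value and spanning at least 1 log2 unit. Sptb, the beta chain of red cell spectrin, led (r = 0.98, rho = 0.98), followed by Add2, an adducin of the red cell skeleton (0.97 and 0.93). Lmna, the nuclear lamina gene (0.97 and 0.90), Mtfr1, a mitochondrial fission regulator (0.96 and 0.93), and Bsg, the surface glycoprotein basigin (0.95 and 0.95), completed the 5. Lmna separated the groups, at 8.05 to 8.27 in WT and 8.31 to 9.50 in Sca1-MALT1, with a difference of 0.81 (SE 0.27, limma adjusted p = 0.377). Of all genes, 4.27% separated the groups in that direction. The scaled mean used to pick Lmna was itself higher on most Sca1-MALT1 arrays than in WT. That choice favours such a separation, so no conclusion is drawn from it.

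Other genes of the red cell lineage did not pass the test either. Of 94 listed genes 80 were measured, 0 were called by limma, 7 had an unadjusted p under 0.05 (8.75% against 10.2% of all genes), and 48 (60.0%) had a higher mean in Sca1-MALT1, against 50.7% of all genes. Their median difference was 0.073. The groups did not overlap for 3: Socs3 was higher, against 4.27% of all genes in that direction, and Myb and Hba-a2 were lower, against 2.87%. Like the 9 genes, these had replicate 3 or 4 as the highest Sca1-MALT1 array in 58 of 80 (72.5%) and replicate 2 as the lowest in 39 of 80 (48.8%).

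Genes of the red cell membrane and skeleton were the list with the highest median, 0.43, and 12 of 13 had a higher mean in Sca1-MALT1. Aqp1, the water channel of red cells, differed by 1.02 (SE 0.44, adjusted p = 0.488), Add2 by 0.59, Sptb by 0.54 and the erythroid surface protein Ermap by 0.50. Replicate 3 was the highest Sca1-MALT1 array in 11 of the 13 and replicate 2 the lowest in 12. The mean of the list was 8.87 to 9.26 in WT and 9.10, 8.48, 10.37, 10.06 and 9.70 on Sca1-MALT1 replicates 1 to 5.

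Haem synthesis genes had a median difference of 0.22, with 6 of 10 higher in mean. Alad, the second enzyme of the pathway, differed by 1.0004 (SE 0.49, adjusted p = 0.536), Cpox, a later one, by 0.66, the mitochondrial transporter Abcb10 by 0.57 and Tmem14c, a carrier of haem precursors, by 0.27. Alad had 1 WT array, replicate 1 at 12.43, above Sca1-MALT1 replicates 1, 2 and 5.

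Globin genes had a median difference of 0.033 over the 6 measured, 3 of them higher in mean. Hbb-b2, an adult beta chain named beyond the rule, read 11.74, 12.20 and 11.96 in WT and 12.24, 11.20, 12.81, 12.31 and 12.19 in Sca1-MALT1, with replicate 3 highest and replicate 2 lowest, and differed by 0.18 (SE 0.32, adjusted p = 0.886). Hba-a2 differed by -0.53 (SE 0.15, adjusted p = 0.322) at means of 6.89 and 6.36, close to the array medians. The embryonic genes Hbb-bh1 and Hba-x differed by 0.24 and -0.076 and Hba-a1 by 0.076, all at means below the array medians. Adult globin genes are near-identical copies, and the probe sets that list several of them were not named, so the values of single globin genes are uncertain.

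Of iron genes, 4 of 9 were higher in mean (median -0.073), with the ferrous iron transporter Slc11a2 at 0.45, the transferrin receptor Tfrc at 0.49, the exporter Slc40a1 at -0.45 and Tfr2 at -0.54. Tfrc read 13.14 and 12.94 on Sca1-MALT1 replicates 3 and 4 and 11.60 to 11.88 in WT. Late enzyme and clearance genes had a median of 0.018 with 8 of 13 higher, and among them Epb41l3 stood at -0.73, catalase (Cat) at -0.17, Ube2l6 at 0.39 and the tetraspanin Tspan33 at 0.50.

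Further transcription factors of the lineage had a median difference of -0.12, with 8 of 18 higher in mean. Myb, which keeps progenitors dividing, read 12.63 to 12.96 in WT and 9.81, 12.19, 9.68, 12.13 and 12.14 in Sca1-MALT1, so that all 5 arrays were below WT, with replicates 1 and 3 lowest; the difference was -1.57 (SE 0.67, adjusted p = 0.486). The factor Lyl1 stood at -0.75, the corepressor Cbfa2t3 at -0.72 and the cell cycle factor E2f4 at 0.37. The erythropoietin signalling genes had a median of 0.042 with 7 of 11 higher. Socs3, a feedback inhibitor of cytokine receptors, read 8.68, 8.83 and 9.44 in WT and 9.70, 11.60, 10.30, 10.92 and 10.84 in Sca1-MALT1, a difference of 1.69 (SE 0.40, adjusted p = 0.246) with no overlap. The survival kinase Pim1 stood at 0.50, the phosphatase Ptpn6 at -0.34 and the adaptor Gab2 at -0.44.

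**Figure D4:**
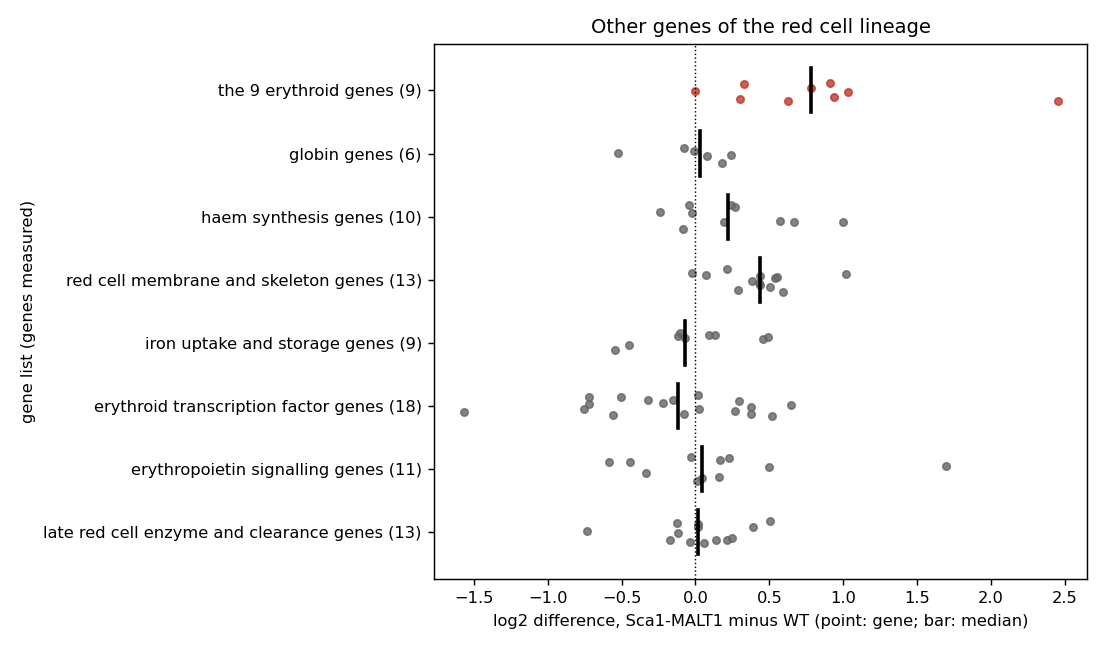
Log2 difference between genotypes (horizontal axis, Sca1-MALT1 minus WT) of the 9 genes and of 7 further lists of red cell genes, where points are genes, vertical bars are medians and numbers in brackets count the genes measured. The medians run from -0.12 for further transcription factors to 0.43 for membrane and skeleton genes, against 0.78 for the 9 genes.

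Markers of other cell types moved between the groups or arrays as well, and their part in the erythroid values was not tested. Megakaryocyte and platelet genes, which share Gata1 and Gfi1b, had 0 of 10 called. Their mean was 7.35 to 7.43 in WT and 6.90 to 8.22 in Sca1-MALT1, highest on replicate 5. Vwf stood at 1.06 (SE 1.08), with 10.65 on replicate 5 and 5.50 to 8.11 on the other Sca1-MALT1 arrays. Pf4 stood at -0.61 and Gp6 at -0.15. Mast cell and basophil genes had 0 of 8 called, and 5 of 8 were higher in mean (median difference 0.076). Their means were 6.73 to 7.22 in WT and 5.67 to 7.91 in Sca1-MALT1, highest on replicate 4 and lowest on replicate 3. Hdc stood at -1.68, Fcer1a at 0.71 and Cpa3 at -0.50. Eosinophil genes had 0 of 5 called and 1 of 5 higher in mean. Their means were 5.31 to 7.61 and 5.64 to 6.96, with Prg2 at 2.67 (SE 1.18), Prg3 at -0.58 and Ccr3 at -0.17. Prg2 read 4.77, 10.23 and 6.36 in WT and 7.78 to 10.86 in Sca1-MALT1.

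Plasma cell genes were higher in mean in all 7, with 1 called (Jchain at 2.58, limma adjusted p = 0.0163; Xbp1 at 1.32, Igha at 5.93), and their mean was 9.35 to 9.67 in WT and 11.51 to 13.09 in Sca1-MALT1. B cell genes were lower in all 8, with 2 called (Igll1 at -3.92 and Vpreb1 at -5.55; Pax5 stood at -1.16), and averaged 9.82 to 10.68 and 7.57 to 8.98. Stem and progenitor genes were lower in 7 of 8 with 0 called (Cd34 at -2.15, Flt3 at -1.59, Hlf at -1.33), with means of 9.20 to 10.65 in WT and 8.03 to 10.11 in Sca1-MALT1. On replicate 2, low in most of the erythroid genes, that mean was 10.01, and on replicates 3 and 4, high in them, 8.52 and 8.26, while replicates 1 and 5 stood at 8.03 and 10.11. Neutrophil genes had 0 of 7 called and 6 of 7 lower in mean, with differences up to 1.26 (means 12.52 to 13.23 and 10.91 to 14.38, S100a9 at -1.30, S100a8 at -0.81, Ltf at -1.19). Monocyte and macrophage genes had 0 of 10 called (8.67 to 9.82 and 7.57 to 9.79; Csf1r at -1.69, Lyz2 at -1.33, C1qa at -0.58), and T cell genes 0 of 7 (8.84 to 9.13 and 8.55 to 9.84; Thy1 at 1.43, Cd3e at 0.77, Cd4 at -0.22). In limma's test an unadjusted p under 0.05 was reached by 7 of 7 plasma cell genes, 5 of 8 B cell genes, 3 stem and progenitor genes, 1 T cell gene and 1 monocyte gene, and by 0 of the neutrophil, megakaryocyte, mast cell and eosinophil genes, against 10.2% of all genes.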

How the data were processed

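The authors deposited log2 signals summarised with RMA (background correction, quantile normalization and summary of probes), per the submitters' processing notes. No version of RMA is named in them. The scale was read from the values, 2.73 to 15.41, and they were used as deposited. Of 45101 probe sets, 64 controls, 932 with several symbols and 9160 without a listed symbol were left out. A gene was represented by its probe set of highest mean, and symbols were updated through identifiers with a RefSeq table (GRCm38.p6, names only). Genotypes were compared with limma 3.58.1 in R 4.3.3 (lmFit, eBayes, all 8 arrays), two-sided, with Benjamini-Hochberg adjustment over 18193 genes; the fit was tested on simulated data. The number of arrays limits the precision. The 9 genes, the lists and the alternatives were chosen with earlier results of these data known. Named were the 9 genes, up to 4 genes per erythroid list and 3 per other list with the lowest unadjusted p, Kit, Cd34 and Flt3, and the 5 genes most like the 9. The alternatives changed normalization, centring, filter, probe sets, variance model, array weights, replicate block, an Xist term, threshold and arrays.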

Additional observations from a re-analysis of the deposited data

Results flagged for a closer look

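In 86 genes and lists, 3 had an array among the 5 Sca1-MALT1 arrays that stood apart from the rest by Dixon's criterion, which flags about 1 in 20 such groups by chance. The mean of the further erythroid transcription factors was 9.45 on Sca1-MALT1 replicate 1, against 10.04 to 10.25 on the other 4. The T cell marker Thy1 read 10.99 on replicate 4, against 12.46 to 12.92 on the others. The mean of the T cell list was 8.55 on the same replicate, against 9.50 to 9.84. None of the 9 erythroid genes had such an array.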

How the results depend on the processing

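The 9 genes were called in no alternative except 1: without Sca1-MALT1 replicate 2, Car1 passed, so that the count over the arrays left out in turn ran from 0 to 1. Car1 stood between 2.12 and 2.71 in all 17 alternatives (adjusted p 0.043 to 0.379) and Gata1 between 0.75 and 1.07 (0.214 to 0.586). Of the 9, all but Slc4a1 kept a higher mean in Sca1-MALT1 in all 17. Some of the 17 could not change a difference: the filter on dim genes, the variance model and, for genes with 1 probe set, the choice of probe sets. Slc4a1, near 0, turned to 0.016 with arrays centred on the median, 0.043 with the mean of probe sets, 0.00491 with array weights and 0.12 with a term for Xist signal, and ran from -0.19 to 0.25 with arrays left out. Alas2 ran from 0.044 to 0.64 and Hemgn from 0.059, with the replicate block, to 0.63. The count of all genes past the threshold was 28 with array weights, 29 with the Xist term, 8 at an adjusted p under 0.01, 38 at 0.1, and 8 to 38 with arrays left out (38 without Sca1-MALT1 replicate 2, 10 without replicate 1, 8 without 3 and 9 without 5). With every probe set tested, 109 of 178 probe sets of the other erythroid genes were higher in mean. With the replicate number as a block, 0 genes passed by limma and 2034 had an unadjusted p under 0.05. Sca1-MALT1 arrays whose number no WT array shares do not inform the difference in that fit. It rests on the number-matched pairs alone and is not a fit of all arrays with a covariate. Differences with the Xist term likewise come from the low-Xist Sca1-MALT1 arrays and WT. Same-numbered arrays showed no common deviation (r of -0.22, -0.038 and 0.0064 over genes), and arrays of unlike number had r of -0.24 to 0.22. So few pairs cannot decide whether the numbers pair the samples, and the labels do not say. The causes of these shifts were not tested.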
